A study of Mus musculus with 2 samples.

Results

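A small group of control islet cells carried endocrine granule transcripts without any of the 4 main islet hormones as a dominant RNA. These cells were selected on the measured hormone and Chga counts themselves. A control barcode was taken when it had at least 1000 UMIs (unique molecular identifiers, each standing for 1 captured RNA), at least 500 genes and at most 15% mitochondrial UMIs, when Gcg (glucagon), Sst (somatostatin), Ppy (pancreatic polypeptide) and Ins1 plus Ins2 (insulin) were each below 1% of its UMIs, and when it had at least 5 UMIs of Chga (chromogranin A, a protein of hormone granules). There were 95 such low-hormone Chga+ cells among 4219 control cells, or 2.25% (1.83 to 2.75), and the series held 12450 filtered cells in all. They were set against the 4013 hormone-dominant control cells, in which at least 1 hormone reached 5% of the UMIs.

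The series measured RNA of single pancreatic islet cells from 1-month-old mice, in 1 library per genotype. Each library pooled cells of 3 animals, dissociated in the presence of actinomycin D, which blocks new transcription, sorted for the red reporter tdTomato and made into 10x 3′ libraries (kit version 3.1). Isl1CKO mice were Neurod1 Cre/+; Isl1f/f, and control mice were Neurod1 Cre/+; Isl1f/+, so the control cells described here also carried the Cre, driven by the endocrine gene Neurod1, and 1 floxed copy of the islet transcription factor gene Isl1. The floxed exons are not named in the labels, so Isl1 reads, which come from 3′ ends, say nothing about whether the deletion took place. With 1 library per genotype no difference below could be tested against replicates, because cells of 1 library are not replicates. Intervals are at the 95% level (exact Poisson for summed levels, exact Clopper-Pearson for shares) and cover counting error only.

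The endocrine cells of the islet each secrete mostly 1 hormone: alpha cells glucagon, beta cells insulin with amylin, delta cells somatostatin and gamma cells pancreatic polypeptide. All of them arise in the embryo from progenitors that switch on Neurog3, and granule proteins of the granin family, Chga among them, are shared by hormone cells of the islet and the gut. Isl1 is a LIM-homeodomain factor that endocrine cells switch on as they leave the progenitor state, while Nkx6-1 and Pdx1 are factors of beta cells and Irx2 is one of alpha cells.

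The hormones that chose the cells lay far below the limit in most of them. The highest hormone share of a cell was 0.0344% in the lowest cell, 0.152% at the median and 0.996% in the highest, and 82 of the 95 cells were under 0.5%. The 2 cells nearest the limit from within stood at 0.830% and 0.996%, and the nearest Chga+ cells outside it at 1.07% and 1.22%. Between the groups lay 97 intermediate cells, whose highest hormone was 1 to 5% of UMIs, 80 of them with at least 5 Chga UMIs. Gcg was the highest of the 4 hormones in 64 cells, insulin in 16 and Ppy in 15. Chga itself had 11 UMIs in the lowest cell, a median of 272 and at most 877, and the 14 low-hormone cells that missed the Chga limit had 0 or 1. Chga made up 5.82% of the UMIs of the low-hormone Chga+ cells.

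The hormone reads that remained under the limit are set here beside the free RNA of the library, as a description, since the rule capped them. Barcodes with 5 to 50 UMIs, 90150 in number, gave the composition of RNA outside cells. Gcg was 0.175% of the UMIs of the low-hormone Chga+ cells and 15.6% of the free RNA, a ratio of 1.12%. For Sst the shares were 0.0276% and 2.84% (a ratio of 0.973%), for Ppy 0.0765% and 7.24% (1.06%), and for insulin 0.126% and 8.13% (1.55%). Their ratios to the free RNA thus lay between 0.973% and 1.55%. Iapp (amylin, co-secreted with insulin) lay apart: it was 1.78% of the UMIs of these cells and 2.05% of the free RNA, a ratio of 87.0%. Pyy (peptide YY) was at 0.273% against 6.35%, but 69.0% of its 1374 UMIs came from 1 cell. Ttr (transthyretin, abundant in alpha cells) was at 0.439% against 1.0%, a ratio of 43.9%, and 30.8% of its UMIs likewise came from 1 cell.

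**Figure D1:**
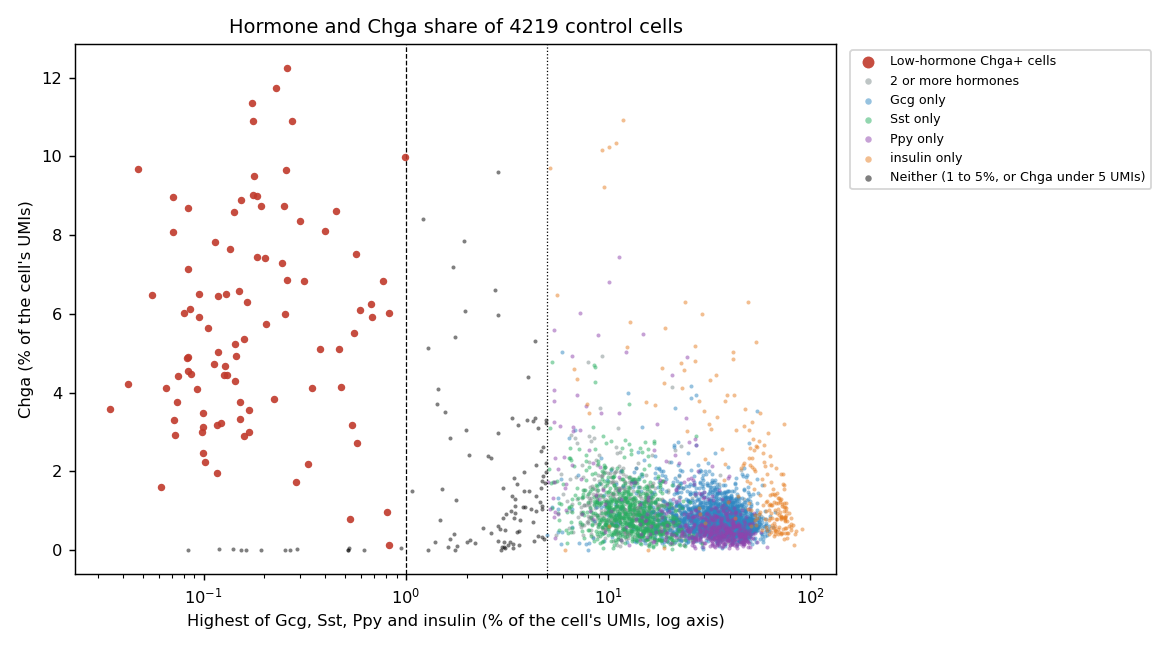
Each point is 1 of the 4219 control cells, with its highest hormone share on a log axis and its Chga share, both in % of the cell's UMIs; the dashed line is the 1% limit and the dotted line the 5% limit. The 95 low-hormone Chga+ cells (red) spread from 0.0344% to 0.996% hormone, left of the dashed line, and the hormone-dominant cells lie right of the dotted line.

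**Figure D2:**
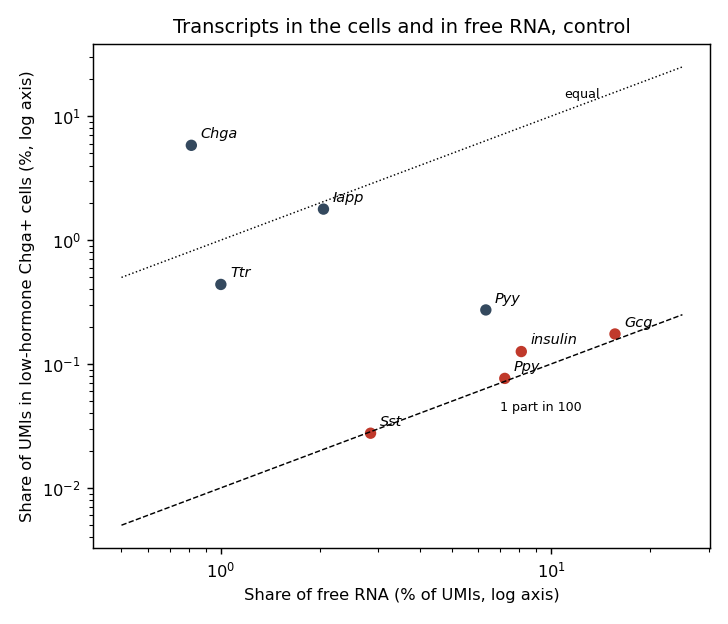
Share of UMIs in the 95 low-hormone Chga+ cells (vertical, log axis) against the share in free RNA of the control library (horizontal, log axis), for 8 transcripts, with the hormones of the rule in red. Gcg, Sst, Ppy and insulin lie near the dashed line of 1 part in 100, at ratios of 1.12%, 0.973%, 1.06% and 1.55%, while Iapp at 87.0% lies near the dotted line of equal shares and Chga lies above it.

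The low-hormone Chga+ cells were shallower than their neighbours in total but not in genes. They had 1245 UMIs at least, a median of 5367 and 9345 at most, against 1048, 9199 and 84964 UMIs in hormone-dominant cells. Outside the 5 hormone genes the medians were 5357 and 6339 UMIs, and the medians of genes per cell were 2436 and 2458. Mitochondrial RNA was a median of 1.32% and 0.914% of the UMIs outside hormones. Beside the main genes below stand shares of cells thinned to equal depth; the part of mitochondrial RNA was not tested. The control pool is labelled as male, yet cells with UMIs of Xist and cells with UMIs of Y-linked genes were both found: 18 of the low-hormone Chga+ cells had Xist alone, 32 had Y-linked UMIs alone, 0 had both and 45 had neither. Xist-only cells were 36.0% of those with either mark alone, in low-hormone Chga+ and in hormone-dominant cells. Scrublet marked 5 of the 95 cells (5.26%) as doublets, against 239 of the 4013 hormone-dominant cells (5.96%); marked cells were kept. Of the 95 barcodes 0 were also filtered cells of the Isl1CKO library, against 8 of the hormone-dominant barcodes. tdTomato, the sorted reporter, was at 2010 CPM against 1653 CPM in hormone-dominant cells. CPM here is counted over the UMIs outside Gcg, Sst, Ppy, Ins1 and Ins2, which were 99.6% of all UMIs in low-hormone Chga+ cells and 65.0% in hormone-dominant cells.

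Most of the low-hormone Chga+ cells lay together when cells were clustered without the genes of the rule. Of the 95 cells, 83 (87.4%) were in 1 cluster of 93 cells, which also held 4 hormone-dominant and 6 intermediate cells. The top 10 genes of that cluster were Nt5e, Tac1, Cldn5, Wfdc10, Slc18a1, Zfp804a, S100z, Lhx1os, Nrgn and Bmpr1b. It had 8 endocrine progenitor markers, none of them among those 10 genes. The next list was enteroendocrine with 4 markers, of which Tac1 and Slc18a1 were among those 10 genes. The cluster was given no cell type name. Another 6 cells lay in a beta-like cluster, 3 in a cluster of low UMI counts and 3 in alpha-like clusters. At a coarser resolution 89 of the 95 cells fell into a beta-like cluster of 349 cells.

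Over the transcriptome, 6231 genes were measured, with at least 20 CPM and 20 UMIs in either group. In low-hormone Chga+ cells 307 of them (4.93%) were at least 2-fold higher than in hormone-dominant cells and 178 (2.86%) at least 2-fold lower. The median log2 ratio of all measured genes was 0.23, and TMM scaling lowered every ratio by 0.28, which gave 148 higher and 247 lower genes. Compared with each of the 4 single-hormone classes in turn (1851 Gcg-only, 733 Sst-only, 514 Ppy-only and 205 insulin-only cells), 84 genes (1.35%) were at least 2-fold higher than in all 4 and 23 (0.369%) at least 2-fold lower than in all 4. Isl1, Pyy and Rbp4 were among the 23, and Fev, Ffar2, Chgb and Slc18a1 among the 84. A gene that passed the filter only through the low-hormone Chga+ cells, as Slc18a1 did, could only count as higher. The counts of higher and lower genes therefore do not weigh gains against losses.

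Isl1 stood lower in low-hormone Chga+ cells than in any hormone class. Isl1 (ENSMUSG00000042258.13, GRCm38 chromosome 13, 116298281 to 116309689, minus strand) was at 61.9 CPM (42.03 to 87.8), against 474 CPM (466 to 482) in hormone-dominant cells, a log2 ratio of -2.89 (-3.49 to -2.43). Per cell, low-hormone Chga+ cells had 0 UMIs at the lowest and at the median and 6 at the highest, and 19 of 95 had any, whereas hormone-dominant cells had 0, 3 and 31. The single-hormone classes had 480 (Gcg only), 615 (Sst only), 302 (Ppy only) and 228 CPM (insulin only), all above the interval of the low-hormone Chga+ cells. After thinning every cell to 2000 UMIs outside the hormones, which left out 4 of the 95 cells, an Isl1 UMI was found in 10.99% (5.40 to 19.3) of low-hormone Chga+ cells and 57.2% (55.6 to 58.8) of hormone-dominant cells. Without thinning the shares were 20% and 86.8%. The immune-like cluster was small and mixed: its 21 cells were 5 hormone-dominant, 5 intermediate and 11 low-hormone cells under the Chga limit, at a median of 3277 UMIs outside the hormones. An Isl1 UMI was in 11.8% (1.46 to 36.4) of the 17 immune-like cells deep enough for thinning, and in 0 of the 9 among them with low hormone, which leaves a wide range of shares possible. So few cells do not set a level of background for Isl1. The 83 cells of the main cluster were at 38.7 CPM (22.5 to 61.9) and the other 12 at 227 CPM (124 to 381). Xist-only cells were at 135 CPM (75.3 to 222) and Y-linked-only cells at 40.0 CPM (16.1 to 82.3).

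Other alpha, delta and gamma factors were also low, while 1 beta factor stood high. Of 24 measured islet transcription factors 5 were at least 2-fold higher and 7 at least 2-fold lower, and their median log2 ratio was 0.57, against 0.23 for all measured genes. Measured here means past the filter in either group, so counts of list genes leave out those that were low in both. A gene that passed only through the low-hormone Chga+ cells could only be called higher. One that passed only through the hormone-dominant cells could not be called higher. Over all measured genes 4.93% were at least 2-fold higher and 2.86% at least 2-fold lower. Nkx6-1 (ENSMUSG00000035187.10, GRCm38 chromosome 5, 101658139 to 101664996), which beta cells need, was at 581 CPM (516 to 651), against 76.9 CPM (73.7 to 80.2) in hormone-dominant cells, a log2 ratio of 2.92. That level was close to the 504 CPM (470 to 540) of insulin-only cells, and the intervals overlapped. Nkx6-1 UMIs were in 85 of the 95 cells, and after thinning in 71.4% (61.0 to 80.4) of low-hormone Chga+ cells, 56.5% (49.2 to 63.7) of insulin-only cells and 0 of 17 immune-like cells. Pdx1, its partner in beta cells, was at 146 CPM (114 to 183), against 442 CPM (410 to 476) in insulin-only cells. Nkx6-1 and Pdx1 were found together in 44 of the 95 cells.

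The alpha cell factors Irx1 and Irx2 were lower. Irx1 was at 23.9 CPM (12.4 to 41.8) in low-hormone Chga+ cells and 110.2 CPM (106 to 114) in hormone-dominant cells, with 6 of its 12 UMIs in 1 cell. Irx2 was at 15.97 CPM (6.89 to 31.5), against 108 CPM (105 to 112), and its UMIs were in 5 of the 95 cells. Of 9 measured alpha cell markers 7 were lower and 0 higher. Of 3 delta markers, Hhex, Rbp4 and Ptprz1, all were lower: Hhex (a delta cell factor) was at 5.99 CPM against 54.6 CPM. The gamma cell markers Pyy and Etv1 were lower. Rbp4 (retinol binding protein, abundant in delta cells) was at 367 CPM, against 5504 CPM, with 33.2% of its UMIs in 1 cell. Neurod1, Nkx2-2, Pax6, Rfx6 and Insm1, factors shared by islet endocrine cells, were within 2-fold, though with plain CPM the log2 ratios of Nkx2-2, Pax6 and Rfx6 were 1.51, 1.18 and 1.27. Neurod1 was at 381 CPM against 302 CPM in hormone-dominant cells and Pax6 at 325 CPM against 221 CPM.

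Beta cell function genes did not follow Nkx6-1. Of 10 measured beta markers 4 were lower, G6pc2, Abcc8, Slc30a8 and Hadh, and Nkx6-1 alone was higher. Slc2a2 (the glucose transporter of mouse beta cells) was at 25.9 CPM (13.8 to 44.4), against 861 CPM (817 to 908) in insulin-only cells. Ucn3 (urocortin 3, of mature beta cells) was at 7.98 CPM (2.17 to 20.4), against 257 CPM in insulin-only cells. Mafa and Glp1r had 0 UMIs in low-hormone Chga+ cells. Both were also under the filter of 20 CPM in hormone-dominant cells, so these counts of 0 show no loss against them. Iapp was at 17861 CPM, against 117123 CPM in insulin-only and 3277 CPM in Gcg-only cells. Iapp UMIs were found in 94 of the 95 cells, with a median of 44 per cell, and after thinning in 97.8% of them and in 70.6% (44.0 to 89.7) of immune-like cells, or 2 of the 9 with low hormone.

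**Figure D3:**
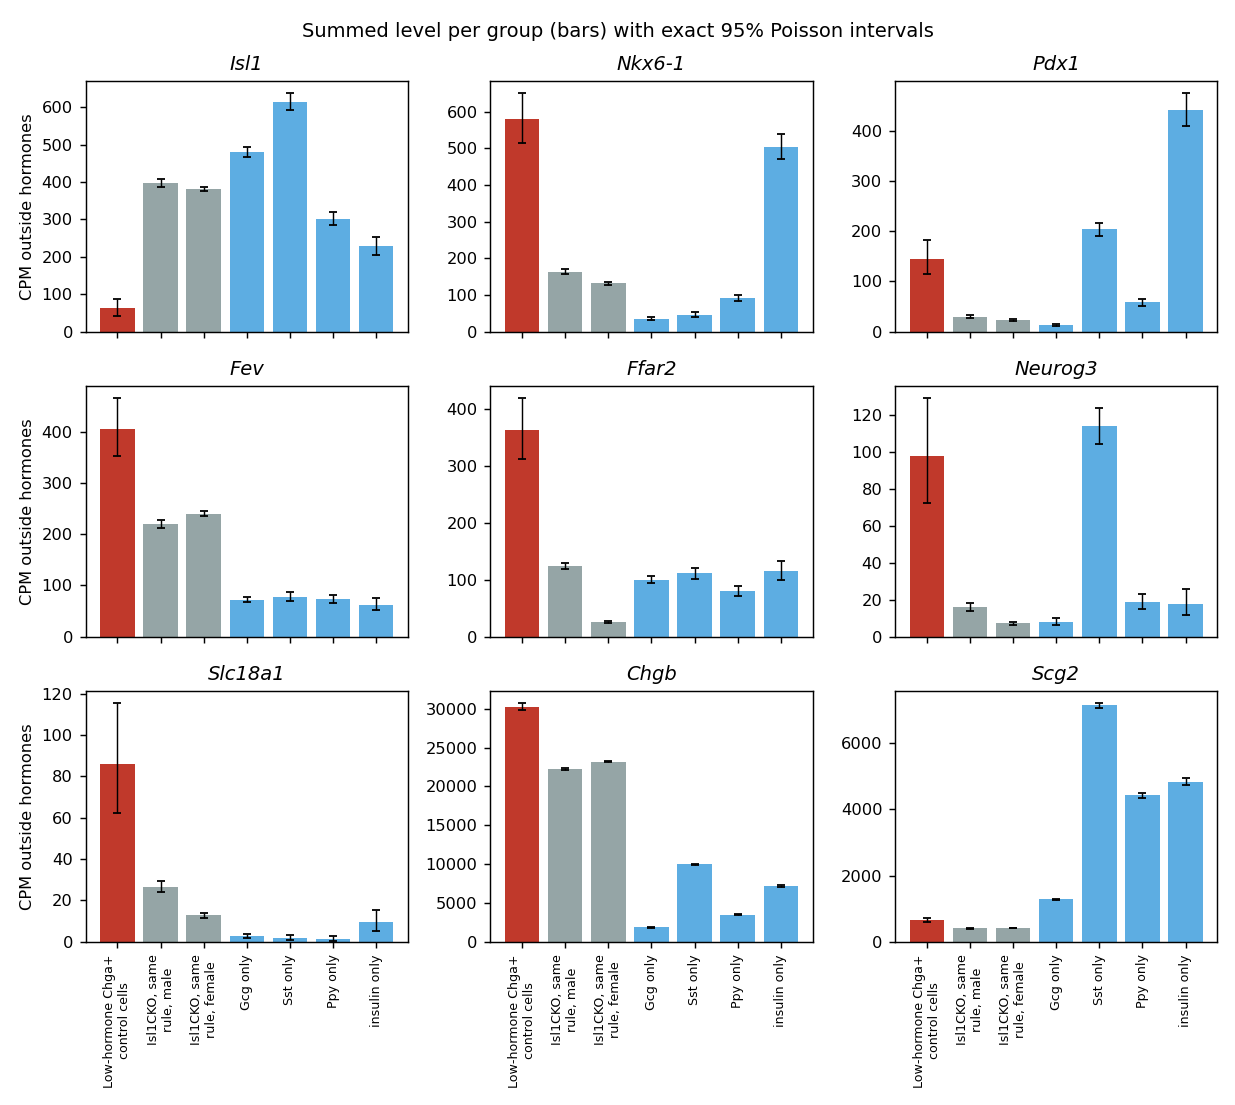
Summed level in CPM outside hormones (bars, linear axes from 0) with exact 95% Poisson intervals for 9 genes in low-hormone Chga+ control cells (red), Isl1CKO cells meeting the same rule by sex mark (grey) and the 4 single-hormone control classes (blue). Low-hormone Chga+ cells have the lowest Isl1 bar at 61.9 CPM and the tallest Ffar2, Fev, Slc18a1 and Chgb bars, and their Nkx6-1 bar at 581 CPM is next to that of insulin-only cells at 504 CPM.

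A few endocrine progenitor genes were higher. Of 15 measured progenitor markers 3 were higher, Neurog3, Fev and Sox4, and 0 lower. The list's median log2 ratio was 0.51, against 0.23 for all measured genes. Of all measured genes 4.93% were at least 2-fold higher and 2.86% at least 2-fold lower, so a count of 0 lower lies near the general share. The calls of Sox4 and Neurog3 depended on the setting. Sox4 fell just under 2-fold in cells with Xist alone, and Neurog3 was only just above 2-fold with TMM. Fev, a factor of late endocrine progenitors and serotonin neurons, was at 407 CPM (353 to 467), against 73.6 CPM (70.5 to 76.9) in hormone-dominant cells, a log2 ratio of 2.47. The 4 single-hormone classes lay between 62.8 and 78.0 CPM. Fev UMIs were in 77 of the 95 cells, and Nkx6-1 and Fev were together in 69. After thinning, Fev was in 50.5% (39.9 to 61.2) of low-hormone Chga+ cells, 13.0% (12.0 to 14.1) of hormone-dominant cells and 0 of 17 immune-like cells.

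Neurog3 was higher than in most classes but not in all. It stood at 97.8 CPM (72.3 to 129), against 40.8 CPM (38.5 to 43.2) in hormone-dominant cells. Sst-only cells, at 114 CPM (105 to 124), had an overlapping interval, while Gcg-only cells had 8.04, Ppy-only cells 18.5 and insulin-only cells 17.9 CPM. Neurog3 UMIs were in 28 of the 95 cells and at most 4 in a cell. After thinning the share was 12.1% (6.19 to 20.6), against 18.8% (16.0 to 21.8) in Sst-only cells and 5.88% (0.149 to 28.7) in immune-like cells; unthinned it was 29.5%. Pax4, Neurod2, Nhlh1, Dll1, Sox11 and Ppp1r14a of the same list had 0 UMIs. No marker of cycling cells was measured.

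Ffar2, a receptor for short-chain fatty acids, was the nutrient receptor that was higher. Ffar2 (ENSMUSG00000051314.11, GRCm38 chromosome 7, 30818348 to 30823775) was at 363 CPM (312 to 420), against 99.8 CPM (96.2 to 104) in hormone-dominant cells, a log2 ratio of 1.87 (1.64 to 2.08), and the 4 single-hormone classes lay between 80.2 and 115 CPM. It was found in 67 of the 95 cells with a median of 1 and a highest count of 8 UMIs, against medians of 0 in hormone-dominant cells. After thinning the shares were 49.5% (38.8 to 60.1) and 18.0% (16.8 to 19.2), with 0 of 17 immune-like cells; unthinned they were 70.5% and 42.1%. Ffar2 and Neurog3 were found together in 20 cells, and neither in 20. The related receptors Ffar4 (for long-chain fatty acids) and Gpr119 were lower: Ffar4 was at 25.9 CPM against 106 CPM, and Gpr119, with 0 UMIs against 25.5 CPM, was at least 4.27-fold lower taking 3 UMIs over the low-hormone Chga+ cells as the floor.

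A few genes that gut hormone cells use for amines and peptides were higher, while many of the same lists were at 0. Slc18a1, a vesicular monoamine transporter, had the highest ratio among the genes found in at least 25% of cells: 85.8 CPM (62.1 to 116), against 2.12 CPM (1.62 to 2.73) in hormone-dominant cells, a log2 ratio of 5.35. Its UMIs were in 29 of the 95 cells, 27 of which also had Fev. Ddc (aromatic amino acid decarboxylase) was at 377 CPM against 162 CPM, though insulin-only cells had 334 CPM, and Tph1, which makes serotonin from tryptophan, had 0 UMIs. Tac1 (tachykinin precursor) was at 45.9 CPM, against 0.388 CPM, from 23 UMIs in 14 cells. Cartpt (a neuropeptide) was at 47.9 CPM, against 3.67 CPM, from 24 UMIs in 8 cells. Of 16 serotonin and monoamine genes 5 were measured: Ddc, Slc18a1 and Fev were higher, Maob (a monoamine oxidase) was lower, at 23.9 CPM against 55.0 CPM, and 7 of the 16 had 0 UMIs. Of 23 other peptide hormones 4 were measured, Tac1 and Cartpt higher and Pyy lower, and 12 had 0 UMIs. Of the 15 enteroendocrine markers only 5 were measured, 3 of them higher and 1 (Gfra3) lower, and 7 had 0 UMIs, Gip, Cck and Nts among them. Ghrl (ghrelin) had 0 UMIs. In hormone-dominant cells Slc18a1, Tac1 and Cartpt were under the filter of 20 CPM. They were measured only through the low-hormone Chga+ cells and could only count as higher. The counts of higher genes therefore give no direction for these lists.

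The granule proteins split. Of 13 measured granule and prohormone processing genes, Chgb alone was at least 2-fold higher, Scg2 and Slc30a8 were lower, and the median log2 ratio was -0.04 (0.58 with plain CPM). Chgb (chromogranin B) was at 30268 CPM, against 4610 CPM in hormone-dominant cells, a log2 ratio of 2.72. Every cell had it, with 10 UMIs at the lowest, 109 at the median and 818 at the highest, against 0, 16 and 693 in hormone-dominant cells. Scg2 (secretogranin II) was at 647 CPM (578 to 721), against 3702 CPM (3680 to 3725), a log2 ratio of -2.51, with medians of 2 and 18 UMIs per cell. Chgb was among the 84 genes at least 2-fold higher than in each of the 4 single-hormone classes. Scg2 was not among the 23 genes at least 2-fold lower than in each of them. The prohormone convertases Pcsk1 and Pcsk2 were within 2-fold, at 61.9 CPM against 65.6 CPM and at 2916 CPM against 5263 CPM. Cpe (carboxypeptidase E), Pam (the amidating enzyme), Scg3 and Scg5 were within 2-fold as well. Some of these passed 2-fold under other settings: the log2 ratio of Pcsk1 was -1.34 with the single-hormone classes weighted equally, those of Pcsk2 and Scg5 were -1.13 and -1.14 with TMM, and that of Scg3 was 1.06 with plain CPM.

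The 2 granins that moved apart against hormone-dominant cells both hold the letters of the cAMP response element near their start. Their promoters are shown with that of Chga for comparison. Each runs 5′ to 3′ on the strand of its gene, from 250 bases before to 50 after the start (RefSeq, GRCm38.p6), with matches to TGACGTNA in capitals: Chga at chr12:102554691-102554990 (plus strand), Chgb at chr2:132781392-132781691 (plus strand) and Scg2 at chr1:79439977-79440276 (minus strand).
Chga: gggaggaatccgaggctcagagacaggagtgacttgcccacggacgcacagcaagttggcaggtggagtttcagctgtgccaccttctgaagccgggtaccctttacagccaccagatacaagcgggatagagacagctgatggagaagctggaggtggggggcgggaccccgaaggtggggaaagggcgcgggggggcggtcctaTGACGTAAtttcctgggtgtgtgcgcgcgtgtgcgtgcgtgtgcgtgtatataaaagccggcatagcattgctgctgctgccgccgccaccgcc
Chgb: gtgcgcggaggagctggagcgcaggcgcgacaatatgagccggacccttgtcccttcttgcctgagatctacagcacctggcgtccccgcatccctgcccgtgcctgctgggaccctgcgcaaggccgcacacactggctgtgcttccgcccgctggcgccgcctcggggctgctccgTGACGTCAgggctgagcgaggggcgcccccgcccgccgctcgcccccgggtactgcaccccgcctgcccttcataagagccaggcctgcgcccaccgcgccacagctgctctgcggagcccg
Scg2: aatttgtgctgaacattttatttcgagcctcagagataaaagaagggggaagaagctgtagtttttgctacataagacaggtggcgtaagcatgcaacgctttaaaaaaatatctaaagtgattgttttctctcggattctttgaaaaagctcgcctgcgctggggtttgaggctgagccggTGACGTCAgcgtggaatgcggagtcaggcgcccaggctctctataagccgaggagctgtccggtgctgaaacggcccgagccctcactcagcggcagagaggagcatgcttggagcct
Chgb and Scg2 have TGACGTCA, 72 and 68 bases before the start, and Chga has TGACGTAA 44 bases before it. Searched on both strands, TGACGTCA is in 1.79% of 32851 promoters of this length and TGACGTNA, which includes it, in 2.93%. Scg3 and Scg5 have neither in this window, and Vgf was not searched. These matches describe letters and not binding.

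Among the genes ranked by size of ratio, the highest after Slc18a1 were Pde1a, Tmigd3, Parm1, Nkx6-1, Ppp1r14c, Chgb, Wfdc16, Fgl2, Tln2, Fev, Csrp2, Il17re, Itpr3 and Pcyt1b. Pde1a (a calcium-dependent phosphodiesterase) was at 67.9 CPM against 8.15 CPM in hormone-dominant cells. Itpr3 (an inositol trisphosphate receptor that releases stored calcium) was at 162 CPM against 31.9 CPM. Fgl2 (a fibrinogen-like protein) was at 239 CPM against 40.0 CPM and Csrp2 (a LIM-domain protein) at 327 CPM against 59.3 CPM. Tmigd3 was not higher than all classes by 2-fold, at 65.9 CPM against 46.2 CPM in insulin-only cells. Among the lowest were Ehf, Pyy, Arg1, Pappa2, Rbp4, Tmsb15l, Edn3, Basp1, Fam159b, Higd1a, Isl1, Wnk3, Tmsb15b2 and Slitrk6. Ehf (an ETS-family factor) had 0 UMIs against 89.4 CPM, at least 14.9-fold lower with the same floor. Arg1 (arginase) was at 9.98 CPM against 367 CPM. Tmsb15l and Tmsb15b2 belong to a family of similar genes whose reads may have been split. Each of Arg1, Pappa2, Tmsb15l and Edn3 had 5 UMIs in all the low-hormone Chga+ cells.

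Stress and dissociation genes differed little, like most measured genes. Over all measured genes 4.93% were at least 2-fold higher and 2.86% at least 2-fold lower, with a median log2 ratio of 0.23. In lists as short as those here, a count of 0 lies near these shares. Of 15 measured genes of the unfolded protein response, 8 immediate early genes and 10 p53 targets, 0 were 2-fold apart in either direction, with median log2 ratios of 0.05, 0.05 and 0.13, which turned to -0.23, -0.22 and -0.14 with TMM. Ribosomal protein genes together were at 90660 CPM, against 134506 CPM in hormone-dominant cells, their median log2 ratio was -0.58 (0.04 with plain CPM), and 1 of 81 was at least 2-fold lower. Of 6 measured nuclear long noncoding RNAs 0 were 2-fold apart, and their median log2 ratio was -0.14. Malat1, the most abundant of them, was at 48963 CPM against 27589 CPM, and per cell at 289 CPM in the lowest low-hormone Chga+ cell, 38444 CPM at the median and 505184 CPM in the highest.

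Markers of most non-endocrine cell types were largely at 0, but those of duct cells, neurons and acinar cells were not, and the immune list still held UMIs. In low-hormone Chga+ cells 9 of 10 stromal, 9 of 12 immune, 7 of 8 Schwann cell, all 5 erythroid and 6 of 9 tuft cell markers had no UMI. Pecam1, Cdh5 and Kdr, which define endothelium, were among the 6 of 8 endothelial markers at 0, while Cldn5 (a tight junction claudin) was at 93.8 CPM against 1.52 CPM and Esam at 43.9 CPM against 11.01 CPM. Cldn5 and Esam passed the filter only through the low-hormone Chga+ cells and could only come out as higher. Ptprc and Col1a1 were at 0. The immune list nevertheless summed to 235 CPM, against 244 CPM in hormone-dominant cells, with UMIs in 54 of the low-hormone Chga+ cells. Of 12 ductal markers 5 were at 0, and the list summed to 1048 CPM, against 858 CPM in hormone-dominant cells; of 4 measured 1 (Spp1) was lower and 0 higher. Of 12 neuron markers 5 were at 0, and the list summed to 421 CPM against 426 CPM. Of 15 acinar markers 4 were at 0, with a sum of 63.9 CPM against 229 CPM, and 3 of the 4 measured were lower.

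**Figure D4:**
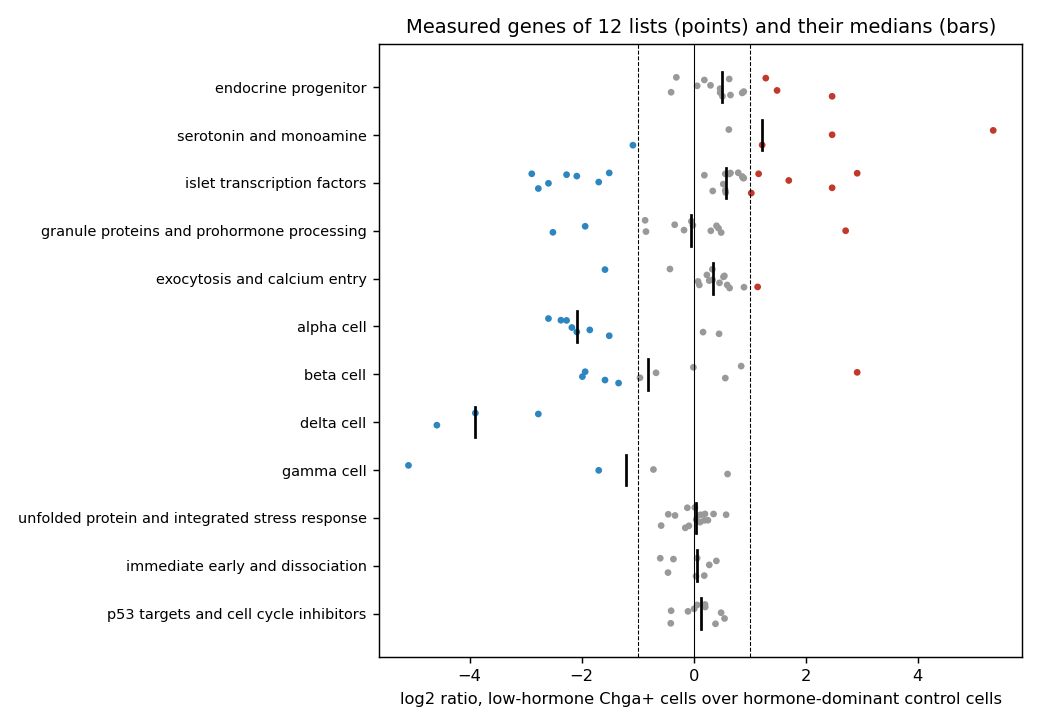
Each point is a measured gene of 1 of 12 lists, placed by its log2 ratio of low-hormone Chga+ cells over hormone-dominant control cells, with the list median as a bar and dashed lines at 2-fold; points in red are at least 2-fold higher and in blue at least 2-fold lower. Alpha cell (median -2.09) and delta cell markers lie left, the endocrine progenitor list (median 0.51) right of 0, and the 3 stress lists between the dashed lines.

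The 12 low-hormone Chga+ cells outside the main cluster carried more transcripts of the hormone classes. Clustering left out only the genes of the rule and could use the genes below, so this contrast may be partly built in. It was not tested. Single cells also weigh in these sums: 1 cell held 30.8% of the Ttr UMIs of all low-hormone Chga+ cells, and Rbp4 was likewise uneven. Beside Isl1, Slc30a8 was at 72.8 CPM in the main cluster and 649 CPM in the other 12 cells, Rbp4 at 123 and 2108 CPM, Ttr at 2756 and 16150 CPM, and Scg2 at 480 and 1832 CPM. Chgb was at 32452 and 14707 CPM and Ffar2 at 394 and 146 CPM. Nkx6-1, at 605 (535 to 683) and 405 CPM (262 to 598), had overlapping intervals. Scrublet marked 3 of the 83 and 2 of the 12 cells.

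The same rule was met by 2.25% of control cells and by 7079 of 8231 Isl1CKO cells (86.0%, 85.2 to 86.7). These cells differed from the low-hormone Chga+ control cells in several of the genes above. Isl1 was at 61.9 CPM in the low-hormone Chga+ control cells and 382 CPM in the Isl1CKO cells, counted from transcript 3′ ends. Nkx6-1 was at 581 and 145 CPM, Ffar2 at 363 and 57.4 CPM, Neurog3 at 97.8 and 10.2 CPM, and Ttr at 4404 and 44807 CPM. Cdkn1a (the p21 cell cycle inhibitor) was at 21.95 and 268 CPM. Chgb, at 30268 and 22693 CPM, and Fev, at 407 and 238 CPM, were within 2-fold of each other and above hormone-dominant control cells in both. Scg2 was at 647 and 403 CPM. Male-marked Isl1CKO cells had more Ffar2 (125 CPM) than female-marked ones (25.6 CPM), and still less than the low-hormone Chga+ control cells. Female-marked cells were 77.4% of the Isl1CKO cells with 1 sex mark alone and 36.0% of such low-hormone Chga+ control cells. Genotype, library and the mix of sex marks cannot be told apart in the sums over all cells.

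Across the 6231 genes, the low-hormone Chga+ profile had a Pearson correlation of 0.933 with male-marked Isl1CKO cells of the same rule, 0.927 with intermediate control cells, 0.925 with hormone-dominant control cells, 0.917 with insulin-only cells, 0.904 with Gcg-only and with Sst-only cells, and 0.878 with female-marked Isl1CKO cells, on log2(CPM + 20). These values are across genes, which are not independent, and the groups differ in depth and number of cells. On the same scale 2.54% of genes were at least 2-fold from male-marked Isl1CKO cells, 8.44% from female-marked and 4.799% from all Isl1CKO cells of the same rule (a correlation of 0.906), 2.58% from intermediate, 3.08% from hormone-dominant and 3.35% from insulin-only control cells.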

How the data were processed

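The deposited matrices hold raw whole-number UMI counts per gene and barcode, unfiltered, 48685758 in control and 86086781 in Isl1CKO. STARsolo and STAR 2.7.3a, the GRCm38.p6 genome and Seurat 4.3.0.1 are named in the submitters' processing notes. Cells passed the stated filters, and UMIs were summed per group and divided by the UMIs outside Gcg, Sst, Ppy, Ins1 and Ins2. Log2 ratios had 1 UMI added to each sum. Called means 2-fold or more. This step was tested on simulated counts. Clusters used scanpy 1.11.5 and leidenalg 0.10.2 (2000 genes, 30 components, 15 neighbours, resolution 1.0), and Scrublet an expected doublet rate of 0.05. TMM came from edgeR 4.0.16 in R 4.3.3. Gene positions are from GENCODE by unversioned ID.

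The genes named are those of fixed lists and the 15 highest and 15 lowest ratios among measured genes found in at least 25% of the cells of the group where they are higher, in the same direction under each scaling, leaving out placeholder names (Gm and Rik). Some genes that the rule covers are not reported here, though counts and medians of lists include them. The members, lists and markers were chosen with earlier results of these data known. Alternatives covered the scaling, filters, pseudocount, sex marks, doublets and resolution.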

Additional observations from a re-analysis of the deposited data

Results flagged for a closer look

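In 5 of 46 genes chosen by the rule for named genes and at least 2-fold apart in control, low-hormone cells differed from hormone-dominant cells in opposite directions in the 2 libraries. The difference between the libraries was not tested, with 1 library each, and the 486 hormone-dominant Isl1CKO cells are another mix of classes than the 4013 of control. The log2 ratios in control and Isl1CKO were 3.01 and -1.43 for Tmigd3, -3.90 and 1.08 for Rbp4, -2.99 and 1.32 for Basp1, -2.98 and 3.31 for Higd1a, and -2.59 and 2.96 for Irx2.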

How the results depend on the processing

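Counts of genes at least 2-fold higher (307) and lower (178) depended on the scale. There were 148 higher with TMM, 155 with median-of-ratios size factors and 1847 higher and 73 lower with plain CPM, in which the hormones of the hormone-dominant cells count in the total. Without a filter on low counts 9529 were higher and 525 lower, and with a filter of 100 CPM, added after seeing the data, 80 and 48, since more or fewer genes were then compared. Cells with Xist alone gave 806 and 287, and cells with Y-linked UMIs alone 521 higher; those sums rest on 18 and 32 cells. The share of cells with an Isl1 UMI was 5.26% thinned to 1000 UMIs and 20% unthinned, for Neurog3 29.5% unthinned, and for Ffar2 32.6% and 70.5%. At resolution 0.5, 93.7% of the cells shared 1 cluster. The number of cells ranged from 82 to 111 over the other limits tried. Of the ratios tried, 0 that were at least 2-fold changed sign, which for genes chosen by size the rule itself fixed over the scalings, while Cpe, Iapp, Insm1, Mafa, Pcsk1, Pdx1, Slc2a2 and Ucn3, all within 2-fold or not measured, did under some setting: Pdx1 ran from -0.28 (classes weighted equally) to 1.18 (plain CPM). With 501090 UMIs outside hormones in all 95 cells, 3 UMIs equal 5.99 CPM, the bound used for a count of 0. No paired analysis was possible because there is 1 library per genotype.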
